A study of Macaca mulatta with 449 samples.

Results

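The set described here holds 6 transcription factors grouped under the name of telencephalic identity, NEUROD1, NEUROD2, NEUROD6, BHLHE22, EMX1 and EMX2. They were chosen by symbol from a table of gene read counts with 30807 rows, and 5 of the 6 names were matched to 1 row each. NEUROD1 (ENSMMUG00000008296), NEUROD2 (ENSMMUG00000001404), NEUROD6 (ENSMMUG00000022699) and BHLHE22 (ENSMMUG00000038208) were matched by gene identifier, and EMX2 (ENSMMUG00000012415) through a gene name that a supplementary table of the study pairs with that identifier. EMX1 was not analysed here, so every statement below is about the other 5 genes.

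The NEUROD proteins are basic helix-loop-helix (bHLH) activators that pair with E proteins such as TCF3, TCF4 and TCF12 and drive neurons, mainly glutamatergic ones, through differentiation. BHLHE22 belongs to the same superfamily but acts mostly as a repressor, and it takes part in setting area identity and axon paths in the developing neocortex. EMX2 is a homeobox factor of the embryonic dorsal telencephalon (pallium), where it patterns cortical areas and is needed for growth of the hippocampus. NEUROD1 and NEUROD2 are also known from cerebellar granule neurons, and NEUROD1 from the pituitary.

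The study sequenced ribosomal RNA-depleted total RNA from dissected brain regions of 8 rhesus macaques (Macaca mulatta), 1 sample for each region and animal. The animals were 4 young (3.2 to 5 years) and 4 mid-aged (9.8 to 10 years) macaques, with 2 females and 2 males in each age group, none of them carrying a label of treatment or genotype. Here 408 samples from 51 sub-regions were used out of the 416 RNA-seq samples in the labels, since the 8 midbrain samples were set aside by the study as possibly mixed with neighbouring tissue, and the 33 chromatin accessibility samples were not analysed here. The sub-regions fall into 16 region groups, which are the neocortex (31 gyri and sulcal areas, counts summed within each animal), entorhinal and perirhinal cortex (PA), hippocampus (HIP, the sum of dentate gyrus, CA1 and CA3), amygdala (AMY), olfactory bulb (OB), striatum (STR, the sum of accumbens, caudate and putamen), globus pallidus (GP), corpus callosum (CC), thalamus (THA), hypothalamus (HTHA), ventral tegmental area (VTA), substantia nigra (SN), pons (PON), medulla oblongata (MO), cerebellum (CB, the sum of cerebellar cortex and vermis) and pituitary (PIT). All animals contributed to every region, so regions were compared within animals.

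Samples held 7784678 to 31083490 gene reads, with a median of 10698602, and a count of 0 in a sample allows a level of up to 0.0967 to 0.409 CPM (read counts scaled to a common effective library size, with 3 reads as the limit, which covers counting error only). Markers were checked against the tissue labels. Summed markers of the anterior pituitary (4 genes) reached at least 36421 CPM in every pituitary sample, and those of oligodendrocytes (6 genes) at least 91516 CPM in every corpus callosum sample. The hypothalamus of animal 6 stood apart. Its summed level of 5 neocortical projection neuron markers was 681 CPM against 22.7 to 28.5 in the other 7 animals, and its 4 measured hypothalamic markers summed to 507 CPM against 690 to 2955. Smaller departures of the same marker sum were found in the accumbens of animal 10 (298 CPM against 12.7 to 76.2), the putamen of animal 3 (150.1 against 13.6 to 20.7) and the substantia nigra of animal 4 (135 against 34.9 to 72.7), whereas the medulla of animal 6 was low (22.2 against 68.5 to 165). That medulla sample also had low glutamatergic neuron markers (65.5 CPM against 568 to 1115). Its sums were high for markers of oligodendrocytes (93986 against 29459 to 64812), astrocytes (14648 against 4501 to 10210), microglia (721 against 166 to 463) and choroid plexus (279 against 13.3 to 138). Its GABAergic, endothelial and ependymal sums lay within the range of the other animals. Fold changes that moved by over 1.5 times when 1 animal was left out are given with and without it. The tissue blocks hold many cell types, so fewer cells of a type and less RNA per cell cannot be told apart in any comparison below.

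NEUROD1 was highest in the cerebellum and not in the telencephalon. Its cerebellar level was 353 ± 63.9 CPM (SD, n = 8 animals), from 274 over a median of 355 to 455. The hippocampus followed with 105 ± 24.2 CPM, from 76.6 over 95.8 to 151, and the neocortex with 24.5 ± 4.80 CPM, from 20.2 over 22.6 to 34.2. These 3 ranges did not overlap. PA (19.4 ± 4.56 CPM, 12.6 to 24.7) and the amygdala (14.5 ± 4.06 CPM, 11.1 to 22.6) overlapped with the lower end of the neocortex. Outside the brain proper, the pituitary held 8.39 ± 3.94 CPM, from 2.02 over 8.42 to 13.7, above the olfactory bulb mean of 6.46 ± 1.65 CPM. Means in the ventral tegmental area, globus pallidus, thalamus, striatum, pons and substantia nigra were all below 1 CPM, and only 12 reads were counted over the 8 pons samples together.

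NEUROD2 was highest in the cerebellum and hippocampus and was also high in the pons. It reached 92.0 ± 17 CPM in the cerebellum, from 60.5 over 96.5 to 112, and 87.9 ± 12.9 CPM in the hippocampus, from 64.6 over 89.5 to 101. The amygdala (59.5 ± 10.1 CPM), PA (49.4 ± 4.88 CPM), pons and neocortex came next. In the pons the level was 43.4 ± 4.40 CPM, from 38 over 42.5 to 50.6, and in the neocortex 39.2 ± 5.00 CPM, from 32 over 41.5 to 44.3. The ranges overlapped between 38 and 44.3 CPM, and the pons was higher in 7 of 8 animals. The next group down, the medulla, held 7.91 ± 4.28 CPM, and its lowest value, 0.165 CPM, was the sample of animal 6, without which the medulla averaged 9.02 ± 3.15 CPM. In the pituitary 1 read was counted in 8 samples, and the pooled neocortical level was 3726 times that of the pituitary with a 95% counting interval of 669 to 147153.

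NEUROD6, a marker of pyramidal neurons, had its 4 highest means in telencephalic groups. Its level was 188 ± 38.8 CPM in the hippocampus, from 114 over 186 to 234, 67.2 ± 26.1 CPM in the amygdala, from 30.1 over 66.7 to 107, and 60.9 ± 7.84 CPM in the neocortex, from 48.6 over 61.5 to 73.5. The hippocampal range lay above the ranges of amygdala and neocortex, and the amygdala spanned the whole neocortical range. PA held 48.4 ± 17.9 CPM. Every other group averaged below 10 CPM, led by the corpus callosum at 8.54 ± 6.85 CPM, where values ran from 0.965 over 7.79 to 18.9. The cerebellum, where NEUROD1 was highest, held 2.69 ± 2.26 CPM.

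BHLHE22 was highest in the hippocampus and the amygdala. It measured 76.8 ± 16.9 CPM in the hippocampus, from 43.5 over 80.7 to 97.6, and 69.8 ± 9.22 CPM in the amygdala, from 56.5 over 70.3 to 80.0. The cerebellum held 40.7 ± 10.4 CPM, from 20.9 over 44.9 to 52.1, PA 36.4 ± 15.8 CPM, from 18.1 over 32.5 to 57.9, and the neocortex 15.0 ± 3.24 CPM, from 10.3 over 15.1 to 19.7. Hippocampus, amygdala and cerebellum lay above the neocortex in all 8 animals without overlap, while PA overlapped with it at its lower end. The pituitary was uneven, at 9.21 ± 9.66 CPM. It measured 29 CPM in animal 6 and 18.4 in animal 11 against 1.76 to 9.13 in the other 6 animals. In the pons, where NEUROD2 was high, BHLHE22 held 0.703 ± 0.60 CPM.

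EMX2 had its highest mean in the hippocampus. Its level was 13.6 ± 1.80 CPM in the hippocampus, from 11.3 over 14 to 15.9, and 7.89 ± 1.08 CPM in the neocortex, from 6.15 over 7.96 to 9.20. PA (6.88 ± 1.31 CPM), striatum (6.56 ± 0.551 CPM), amygdala (6.00 ± 0.662 CPM) and olfactory bulb (5.88 ± 2.05 CPM) lay just below. The striatum ran from 5.58 over 6.68 to 7.20 CPM and overlapped with the neocortex. Each of the 4 bHLH members averaged below 3 CPM there, with every value below its own neocortical range. EMX2 was lowest in the cerebellum, where 14 reads were counted in all, and the pooled neocortical level was 109.7 times the cerebellar level with a 95% counting interval of 65.4 to 201. EMX2 measured 3.02 ± 0.809 CPM in the thalamus, 2.52 ± 1.49 CPM in the hypothalamus (2.02 ± 0.518 without animal 6), 1.15 ± 0.612 CPM in the globus pallidus (0.471 to 2.44), 0.367 ± 0.297 CPM in the pons and 0.191 ± 0.158 CPM in the medulla.

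**Figure D1:**
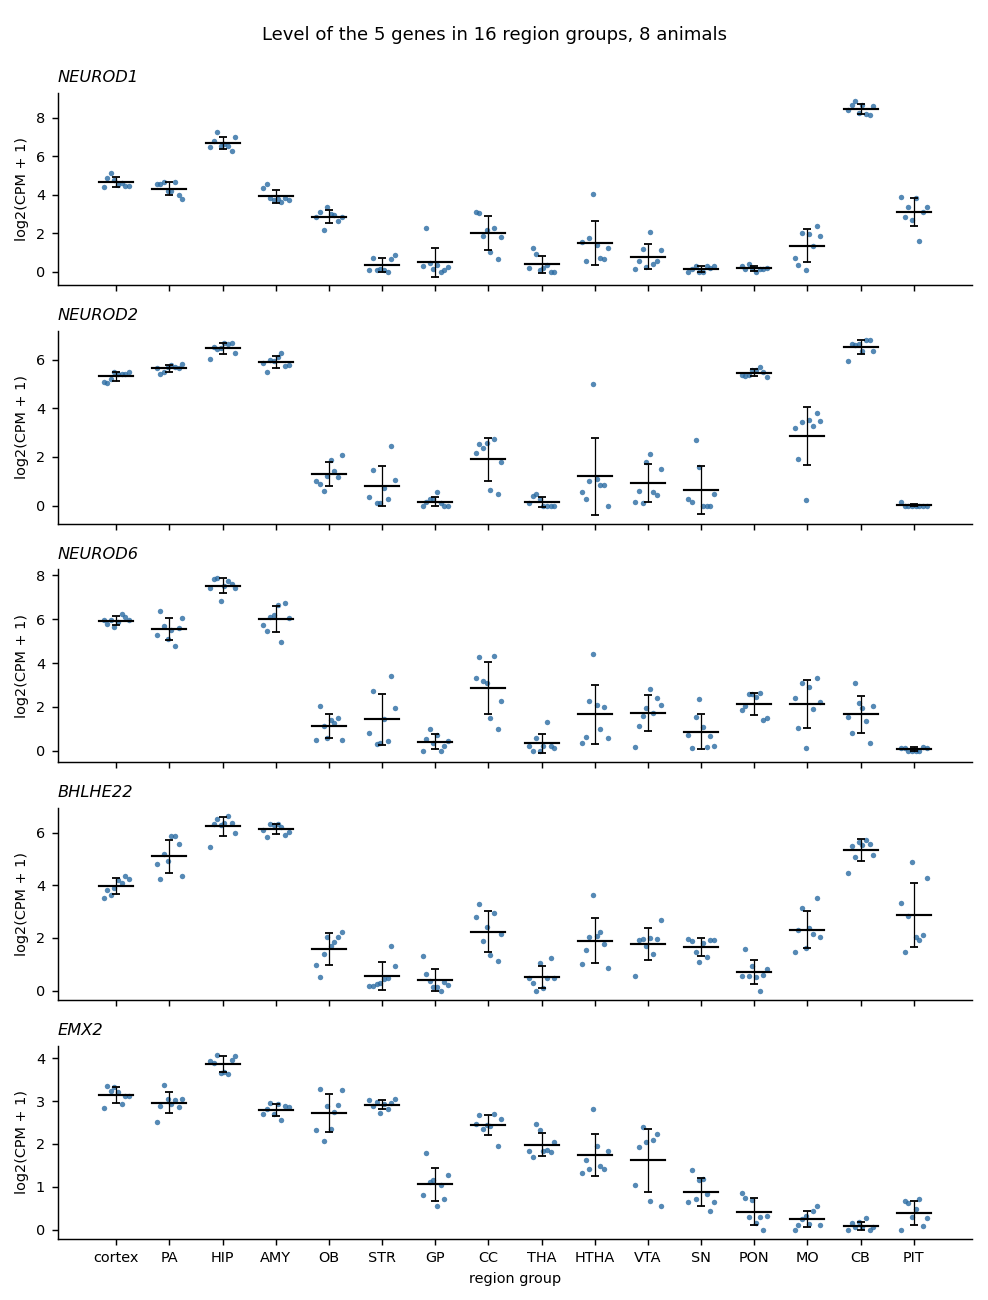
Level of NEUROD1, NEUROD2, NEUROD6, BHLHE22 and EMX2 (log2(CPM + 1), vertical axis) in the 16 region groups (horizontal axis). Points are animals, the horizontal bars are means and the error bars 1 SD (n = 8). NEUROD1, NEUROD2 and BHLHE22 were high in the cerebellum (CB) with NEUROD6 and EMX2 low there, and NEUROD2 alone was high in the pons (PON).

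The name telencephalic therefore held for only part of the set. NEUROD6, BHLHE22 and EMX2 had their highest group mean in the hippocampus, BHLHE22 with a cerebellar mean above its neocortical mean, and NEUROD1 had its highest in the cerebellum. For NEUROD2 the cerebellum and hippocampus were not told apart (exact sign-flip permutation p = 0.398, cerebellum higher in 6 of 8 animals), and its highest sub-region mean was in the dentate gyrus (98.7 CPM). Means of at least 1 CPM were found in 43 of 51 sub-regions for NEUROD1, 46 for NEUROD2, 47 for NEUROD6, 46 for BHLHE22 and 45 for EMX2. In the ordering of the 16 group means of each member, all 75 pairs of neighbouring groups were compared within animals with an exact two-sided sign-flip permutation test on log2(CPM + 1). The order was taken from the same values that were tested, so the test is no independent support for it. None of the 75 pairs differed after Benjamini-Hochberg adjustment, 20 passed at an unadjusted p below 0.05, and the 10 pairs at the smallest p that 8 animals allow (0.00781) had an adjusted p of 0.0586, since at least 12 pairs at that p would have been needed. In those 10 pairs the same group was higher in all 8 animals, among them cerebellum over hippocampus and hippocampus over neocortex for NEUROD1, hippocampus over amygdala for NEUROD2 and NEUROD6, amygdala over cerebellum for BHLHE22, and hippocampus over neocortex for EMX2.

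To ask where each gene departs from the neocortex, each of the 15 other groups was set against it in 1 fit across all genes (edgeR quasi-likelihood test with the animal as a block, called at an adjusted p below 0.05 and a fold change over 2). All 15 comparisons share the neocortical samples. All 5 members passed the filter on low counts, and 9 of the 75 pairs of member and group were called higher and 52 lower, beside 12.3% higher and 12.2% lower over all 252435 pairs of gene and group. The share called higher was near that of all genes, and 69.3% of the pairs were called lower. Any difference over the 16 groups was found for 5 of 5 members, beside 99.7% of all genes.

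The hippocampus held the most members above the neocortex, 4 of 5, beside 6.05% of all genes called higher. BHLHE22 was higher by a log2 fold change of 2.37 ± 0.35 (SE; edgeR adjusted p = 5.95e-09), NEUROD1 by 2.10 ± 0.33 (adjusted p = 8.19e-08) and NEUROD6 by 1.62 ± 0.43 (adjusted p = 0.00106). NEUROD2 was higher by 1.17 ± 0.41 (edgeR adjusted p = 0.0142), a call that DESeq2 did not make (1.18, adjusted p = 0.125). EMX2 passed the adjusted p but not the fold (0.80 ± 0.21, edgeR adjusted p = 0.00118), with every hippocampal value above every neocortical value.

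In the cerebellum 3 of 5 members were called higher than in the neocortex, beside 10.8% of all genes, and 2 lower, beside 14.9%. NEUROD1 had the largest rise of the set, 3.88 ± 0.36 on the log2 scale (edgeR adjusted p = 7.34e-18), and BHLHE22 rose by 1.46 ± 0.34 (adjusted p = 7.44e-05). NEUROD2 rose by 1.26 ± 0.41 (edgeR adjusted p = 0.00492), which DESeq2 did not call (1.23, adjusted p = 0.0835). NEUROD6 fell by 4.55 ± 0.51 and EMX2 by 6.70 ± 0.35 on the log2 scale (edgeR adjusted p = 6.28e-14 and 1.02e-34). For each of the 5 genes the direction held in 8 of 8 animals.

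The amygdala and PA each had 1 member called higher, BHLHE22 in both cases, beside 5.03% of all genes in the amygdala and 5.51% in PA. Its log2 fold change was 2.24 ± 0.35 in the amygdala (edgeR adjusted p = 4.47e-08) and 1.28 ± 0.34 in PA (adjusted p = 0.00138). The other 4 members were not called in either group. For NEUROD2 in the amygdala the difference was 0.60 ± 0.41 (edgeR adjusted p = 0.247), although the 8 amygdala values of 44.3 to 76.6 CPM all lay at or above the top of the neocortical range, 32 to 44.3 CPM. For NEUROD1 the amygdala was lower than the neocortex in 8 of 8 animals without being called (-0.78 ± 0.34, edgeR adjusted p = 0.0593).

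In the pons 4 of 5 members were called lower, beside 13.3% of all genes, and NEUROD2 was the exception with a log2 fold change of 0.13 ± 0.41 (95% interval -0.67 to 0.94, edgeR adjusted p = 0.794). The result does not show that the levels are equal. Of the 5 neocortical projection neuron markers, 4 were called lower in the pons and 0 higher (median log2 fold change -4.97). From this list SLC17A7, the vesicular glutamate transporter VGLUT1, measured 588 ± 61.8 CPM there (484 to 678). TBR1, a transcription factor of cortical projection neurons, was at 0.0708 CPM and had no read in 3 of the 8 samples. NEUROD1 fell by 7.35 ± 0.62 there on the log2 scale, BHLHE22 by 4.38 ± 0.48, NEUROD6 by 4.13 ± 0.52 and EMX2 by 4.43 ± 0.32 (edgeR, adjusted p at most 7.9e-12).

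All 5 members were called lower in the globus pallidus, thalamus, hypothalamus, ventral tegmental area, substantia nigra and medulla, beside 17.8%, 9.92%, 7.62%, 13.6%, 13.6% and 12.5% of all genes. EMX2 had the smallest fall of the 5 in the thalamus (-1.40 ± 0.23) and hypothalamus (-1.69 ± 0.24), and NEUROD2 the largest in the thalamus (-8.45 ± 0.76) and the globus pallidus (-8.40 ± 0.76). In the olfactory bulb, striatum, corpus callosum and pituitary 4 of 5 were called lower, beside 9.94%, 8.18%, 24% and 23.3%. The member not called was EMX2 in the olfactory bulb (-0.43 ± 0.22), striatum (-0.26 ± 0.22, 95% interval -0.68 to 0.17) and corpus callosum (-0.81 ± 0.23, edgeR adjusted p = 0.000864). In the pituitary the member not called was BHLHE22 (-0.81 ± 0.35, edgeR adjusted p = 0.0311), which was called lower without animal 6 (-1.31) or without animal 11 (-1.01). Those 2 females had the highest pituitary BHLHE22 levels, and their level of PRL, the prolactin gene, was also the highest, at 347981 and 234691 CPM against 25823 to 82926 in the other 6 animals. The part of this in the result was not tested.

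**Figure D2:**
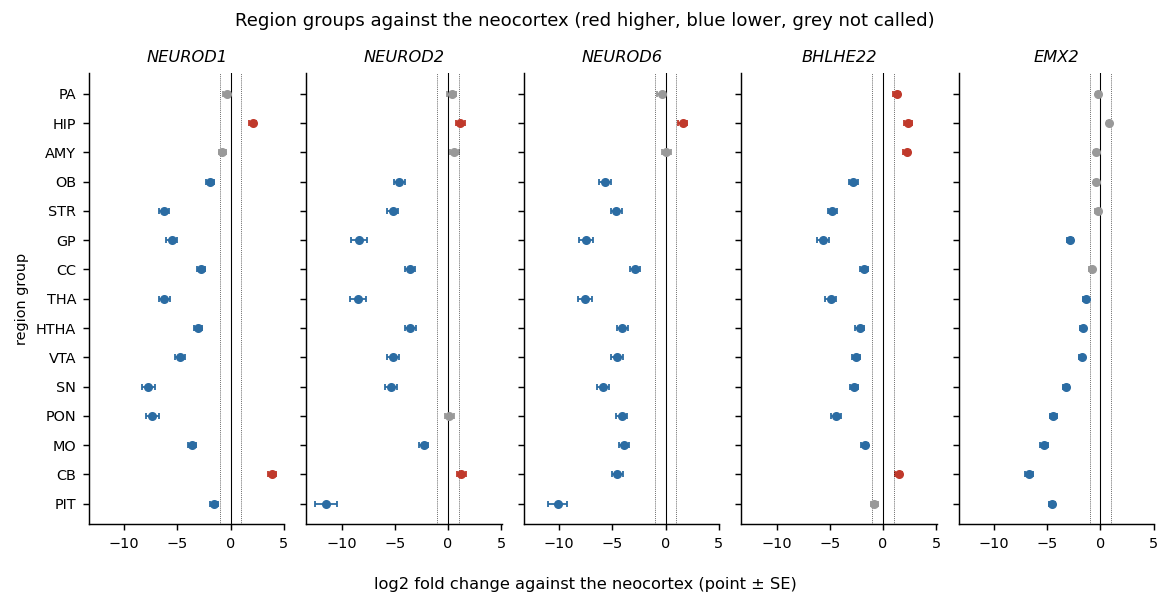
Log2 fold change of each member between 15 region groups (vertical axis) and the neocortex (points, with bars of 1 SE), from 1 edgeR fit over 8 animals. Red points were called higher, blue points lower and grey points neither, and dotted lines mark a fold change of 2. The 9 red points are in the hippocampus (HIP), cerebellum (CB), amygdala (AMY) and PA.

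Several of the low values rest on 1 sample. In the hypothalamus of animal 6 all 5 members were the highest of the 8 animals, with NEUROD2 at 31.3 CPM against 0 to 1.15, NEUROD6 at 20.4 against 0.282 to 3.86, NEUROD1 at 15.7 against 0.473 to 2.36, BHLHE22 at 11.4 against 0.799 to 3.64, and EMX2 at 6.02 against 1.51 to 2.89. The neocortical markers SLC17A7 (473 CPM against 0.959 to 5.11) and TBR1 (46.2 against 0.361 to 5.59) moved with them in the same sample. Without animal 6 the hypothalamic log2 fold changes against the neocortex became -5.96 from -3.54 for NEUROD2, -5.27 from -4.08 for NEUROD6, -4.27 from -3.09 for NEUROD1, -2.72 from -2.21 for BHLHE22 and -1.97 from -1.69 for EMX2. All 5 stayed lower with edgeR. In the striatum, leaving out animal 10 moved NEUROD2 to -6.03 from -5.22 and BHLHE22 to -5.42 from -4.77.

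Leaving out 1 animal also moved 9 more falls by over 1.5 times, each away from 0 and each after the highest sample of a group was removed. NEUROD1 became -7.07 from -5.54 in the globus pallidus and -6.84 from -6.24 in the thalamus without animal 3, and -5.39 from -4.75 in the ventral tegmental area without animal 7. NEUROD2 became -6.68 from -5.40 in the substantia nigra without animal 4, -9.05 from -8.40 in the globus pallidus without animal 7, and -13.49 from -11.48 in the pituitary without animal 2, the last being the animal with the only read. NEUROD6 became -6.67 from -5.86 in the substantia nigra without animal 6 and -8.72 from -7.55 in the thalamus without animal 8, and BHLHE22 became -6.43 from -5.63 in the globus pallidus without animal 2.

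**Figure D3:**
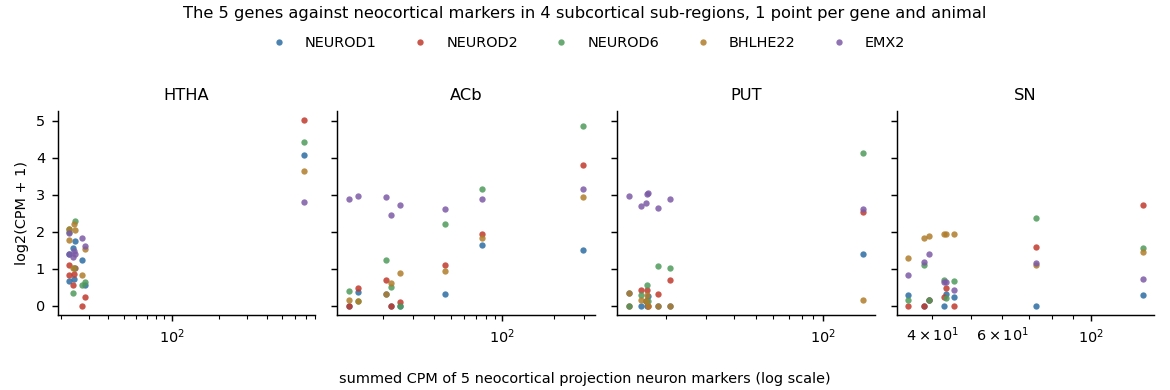
Level of the 5 members (log2(CPM + 1), vertical axis) against the summed CPM of 5 neocortical projection neuron markers (log scale, horizontal axis) in hypothalamus (HTHA), accumbens (ACb), putamen (PUT) and substantia nigra (SN), with 1 point for each gene and animal. The animal farthest to the right is animal 6 in HTHA at 681 CPM, animal 10 in ACb at 298, animal 3 in PUT at 150.1 and animal 4 in SN at 135.

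Whether the cerebellum stands out from the rest of the hindbrain was asked in the same fit against the mean of pons and medulla. Of the 5 members 3 were called higher in the cerebellum, beside 14.5% of all genes, and 1 lower, beside 19.4%. NEUROD1 was higher by 9.37 ± 0.39 on the log2 scale (edgeR adjusted p = 2.62e-43), BHLHE22 by 4.52 ± 0.33 (adjusted p = 2.76e-24) and NEUROD2 by 2.34 ± 0.35 (adjusted p = 2.38e-09), each without overlap between the groups. EMX2 was called lower (-1.83 ± 0.48), with 0 to 0.208 CPM in the cerebellum and 0.109 to 0.436 CPM in the mean of pons and medulla. These ranges overlapped, and the call rests on few reads, 14 in the cerebellum, 30 in the pons and 18 in the medulla over all animals. NEUROD6 was not called (-0.54 ± 0.45, edgeR adjusted p = 0.271). In the list of cerebellar granule genes (11 genes, 9 with a row), all 8 that passed the filter were higher, with a median log2 fold change of 3.96 beside -0.02 over all genes. GABRA6, a GABA receptor subunit of granule cells, measured 971 CPM in the cerebellum against 0.638 in pons and medulla.

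Between the vermis and the cerebellar cortex no member was called by edgeR, beside 0.225% of all genes, and 1 of the 4 members tested, NEUROD6, passed at an unadjusted p below 0.05, beside 13.8%. EMX2 did not pass the filter on low counts there. NEUROD1 measured 365 ± 71.6 CPM in the vermis and 342 ± 59.4 CPM in the cerebellar cortex (0.10 ± 0.06, 95% interval -0.02 to 0.22), NEUROD2 92.7 ± 16.3 and 91.6 ± 18.3 CPM (0.03 ± 0.07, interval -0.10 to 0.16) and BHLHE22 43.4 ± 11.2 and 38.2 ± 12.7 CPM (0.22 ± 0.14, interval -0.06 to 0.50). NEUROD6 was 0.75 ± 0.24 higher in the vermis (edgeR adjusted p = 0.238), with 1 vermis sample of animal 4 at 11.2 CPM and the other 7 at 0.493 to 4.43.

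Within the hippocampus the members split between the dentate gyrus, whose principal cells are granule neurons, and the pyramidal fields CA1 and CA3. All 5 members differed between the dentate gyrus and the mean of CA1 and CA3 at an adjusted p below 0.05, beside 39.4% of all genes, and none passed a fold change of 2, beside 3.18%. BHLHE22 was 102 ± 21 CPM in the dentate gyrus, 55.1 ± 11.8 in CA1 and 73.5 ± 24.3 in CA3, higher in the dentate gyrus in 8 of 8 animals (0.70 ± 0.08 on the log2 scale, edgeR adjusted p = 1.39e-05). EMX2 was 17.1 ± 2.94, 11.4 ± 2.26 and 12.2 ± 2.59 CPM in the same order and was also higher in 8 of 8 animals (0.54 ± 0.10, adjusted p = 0.000581 in edgeR).

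NEUROD2 (0.26 ± 0.08, edgeR adjusted p = 0.0158) and NEUROD1 (0.29 ± 0.11, adjusted p = 0.0481) were higher in the dentate gyrus by smaller amounts. NEUROD6 went the other way, with a mean of 133 ± 80.4 CPM in the dentate gyrus, 181 ± 50.3 in CA1 and 258 ± 109.9 in CA3 (-0.83 ± 0.30, edgeR adjusted p = 0.0349). Its dentate values ran from 31.1 over 122 to 272 CPM, and 2 of 8 animals were higher in the dentate gyrus than in the mean of CA1 and CA3. Without animal 6, the lowest, the NEUROD6 difference was -0.65 (adjusted p = 0.11), and without animal 2 or animal 4, the highest, it passed a fold change of 2 (-1.05 and -1.04). Without the animal as a block 2 of the 5 differences stayed below an adjusted p of 0.05, and with each animal left out 2 to 5 did. Summed oligodendrocyte markers moved with this comparison, with 1535 to 3140 CPM in the dentate gyrus against 3418 to 8792 in CA1 and 4082 to 9637 in CA3. Choroid plexus markers moved the other way, with 3 of 3 higher in the dentate gyrus (median log2 fold change 1.98) and sums of 94.6 to 945 CPM there, 20.8 to 72.3 in CA1 and 31.5 to 937 in CA3. The part of these markers in the result was not tested.

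Between CA1 and CA3 no member was called by edgeR or DESeq2, beside 0.0203% of all genes, and 1 of 5, BHLHE22, passed at an unadjusted p below 0.05, beside 6.87%. Its log2 difference was small (-0.38 ± 0.10 in CA1 relative to CA3, edgeR adjusted p = 0.222) and was lower in CA1 in 6 of 8 animals. CA1 was also set against the posterior cingulate gyrus (PCG), a pair of regions that the study used for chromatin accessibility. There 2 of 5 members were called higher in CA1, beside 4.71% of all genes, and all 5 passed the adjusted p, beside 36.4%. BHLHE22 measured 55.1 ± 11.8 CPM in CA1 and 10.4 ± 5.80 in PCG (2.52 ± 0.20, edgeR adjusted p = 5.57e-07), and NEUROD1 89.5 ± 14.8 and 20.6 ± 4.41 (2.13 ± 0.13, adjusted p = 5.08e-08). The differences of NEUROD6 (0.93 ± 0.13), NEUROD2 (0.79 ± 0.09) and EMX2 (0.47 ± 0.16, edgeR adjusted p = 0.0338) were smaller. Between CA1 and PCG 5 of 6 oligodendrocyte markers were also higher in CA1 (median log2 fold change 1.37, sums of 3418 to 8792 CPM in CA1 and 1545 to 3567 in PCG), as were 2 of 3 ependymal markers (median 1.13), while 3 of 5 neocortical projection neuron markers were lower and 1 higher (median -1.85). Their part in the members' differences was not tested.

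**Figure D4:**
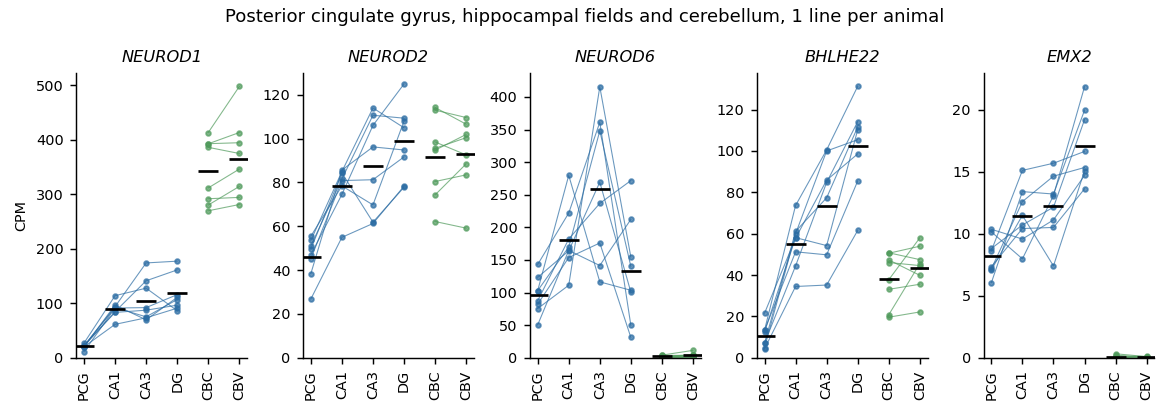
Level (CPM, vertical axis, starting at 0) of each member in the posterior cingulate gyrus (PCG), the hippocampal fields (CA1, CA3, DG) and the cerebellar samples (CBC, cerebellar cortex, and CBV, vermis), with 1 line for each of 8 animals and black bars at the means. BHLHE22 and EMX2 were higher in DG than in the mean of CA1 and CA3 in all 8 animals, and the NEUROD6 lines cross.

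Of the 3 striatal sub-regions, only EMX2 passed the filter on low counts, with 6.17 ± 1.05 CPM in the accumbens, 7.31 ± 1.12 in the caudate nucleus and 6.16 ± 0.852 in the putamen. It did not differ by edgeR between the accumbens and the mean of caudate and putamen (-0.12 ± 0.11, adjusted p = 0.414) or between caudate and putamen (0.23 ± 0.13, adjusted p = 0.172), beside 5.14% and 4.82% of all genes called. Of the other 4 members, all were above 1 CPM in the accumbens of animals 10 and 11, and all but BHLHE22 (0.109 CPM) in the putamen of animal 3. In the accumbens NEUROD6 measured 27.7 CPM in animal 10 against 0 to 7.84, NEUROD2 12.9 against 0 to 2.85, and BHLHE22 6.68 against 0.101 to 2.53, and in each case the second highest value was that of animal 11. NEUROD1 was highest in animal 11 there (2.14 CPM), ahead of animal 10 (1.82). In the putamen of animal 3 NEUROD6 measured 16.6 CPM against 0 to 1.10.

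Across the 31 neocortical sub-regions each member differed (5 of 5 by edgeR at an adjusted p below 0.05, beside 75% of all genes), and the ratio of highest to lowest mean ran from 1.92 for EMX2 to 7.31 for NEUROD6. NEUROD6 was highest in the anterior cingulate gyrus (ACG, 113 ± 18.2 CPM, 84.2 to 145) and lowest in the inferior occipital gyrus (IOG, 15.5 ± 7.79 CPM, 3.16 to 23.7). NEUROD1 ran from 39.9 ± 8.91 CPM in the posterior superior frontal gyrus (SFG, 31.7 to 54.7) to 8.18 ± 4.39 CPM in the posterior superior occipital gyrus (pSOG, 2.36 to 16.7), and NEUROD2 from 58.2 ± 15.5 CPM in ACG to 26.3 ± 5.59 CPM in pSOG. The 3 occipital sub-regions had the 3 lowest means for each NEUROD member. Within single animals they were the 3 lowest in 1 of 8 for NEUROD1, 1 of 8 for NEUROD2 and 2 of 8 for NEUROD6.

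BHLHE22 was ordered differently. Its highest means were in the temporal polar gyrus (TPG, 29.8 ± 6.59 CPM, 20.6 to 39.2), pSOG (28.2 ± 6.31 CPM, 18.5 to 37.4) and the insula (27.9 ± 7.59 CPM, 16.5 to 41.3), and its lowest in the anterior arcuate sulcus gyrus (AASG, 8.00 ± 1.82 CPM, 5.61 to 11.1). pSOG was thus the lowest neocortical sub-region for NEUROD1 and NEUROD2 and the second highest for BHLHE22. EMX2 was highest in the ventromedial prefrontal cortex (10.7 ± 3.52 CPM) and lowest in the fusiform gyrus (5.60 ± 1.52 CPM). For every member the sub-region with the highest mean exceeded that with the lowest mean in 8 of 8 animals. Both sub-regions were picked from the same values, so this count is no independent support for the difference.

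Each lobe was then compared with the mean of the other 4 lobes, and these comparisons share their samples. Of the 25 pairs of member and lobe, 2 were called by edgeR with a fold change over 2, and both were in the occipital lobe, where 4.00% of all genes were called lower and 5.20% in either direction. In the frontal, limbic, parietal and temporal lobes 0 members were called by edgeR or DESeq2, beside 1.75%, 0.475%, 0.212% and 0.761% of all genes. NEUROD6 measured 22.2 ± 6.82 CPM in the occipital lobe, from 14.7 over 20.8 to 32.6, against 50.6 to 75.8 in the mean of the other 4 lobes (-1.46 ± 0.12, edgeR adjusted p = 9.54e-13). NEUROD1 measured 9.65 ± 4.04 CPM, from 4.49 over 9.13 to 15.9, against 20.9 to 34.4 in that mean (-1.39 ± 0.11, adjusted p = 7.58e-13). Neither gene's occipital range overlapped with the range of this mean, and single other lobes reached down to 34.3 CPM for NEUROD6 (temporal) and 16.2 CPM for NEUROD1 (parietal).

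At an adjusted p below 0.05, whatever the fold, 14 of the 25 pairs passed, 4 of them in the occipital lobe, beside 56.3% of all genes. BHLHE22 was higher there (0.74 ± 0.06, edgeR adjusted p = 5.74e-13) in 8 of 8 animals, NEUROD2 was lower (-0.48 ± 0.07, adjusted p = 1.12e-07) in 8 of 8, and EMX2 was not told apart (-0.03 ± 0.06, interval -0.14 to 0.08). In the same comparison SLC17A7 was lower (-0.58 ± 0.04) and SLC17A6, the vesicular glutamate transporter VGLUT2, was higher (1.39 ± 0.05, edgeR adjusted p = 5.98e-22). The 5 glutamatergic neuron markers, which include both, had a median of -0.12, with 1 called higher and 0 lower. The 5 neocortical projection neuron markers, which include SLC17A7, had a median of 0.14, with 0 called. Oligodendrocyte markers had a median of 0.51 and microglia markers of -0.53, also with 0 called. The part of these marker levels in the members' differences was not tested.

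In the frontal lobe all 5 passed the adjusted p, beside 44% of all genes. NEUROD1 (0.89 ± 0.09), NEUROD6 (0.84 ± 0.10), EMX2 (0.40 ± 0.05) and NEUROD2 (0.26 ± 0.06) were higher and BHLHE22 (-0.26 ± 0.06) was lower in edgeR, with adjusted p from 5.76e-10 to 0.000704. In the limbic cortex 2 passed, beside 15.9%, with NEUROD6 (0.61 ± 0.10) and NEUROD2 (0.21 ± 0.06) higher. In the parietal lobe 1 passed, beside 9.64%, with BHLHE22 lower (-0.51 ± 0.06), and in the temporal lobe 2 passed, beside 25.7%, with NEUROD1 (0.27 ± 0.10) and BHLHE22 (0.19 ± 0.06) higher.

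**Figure D5:**
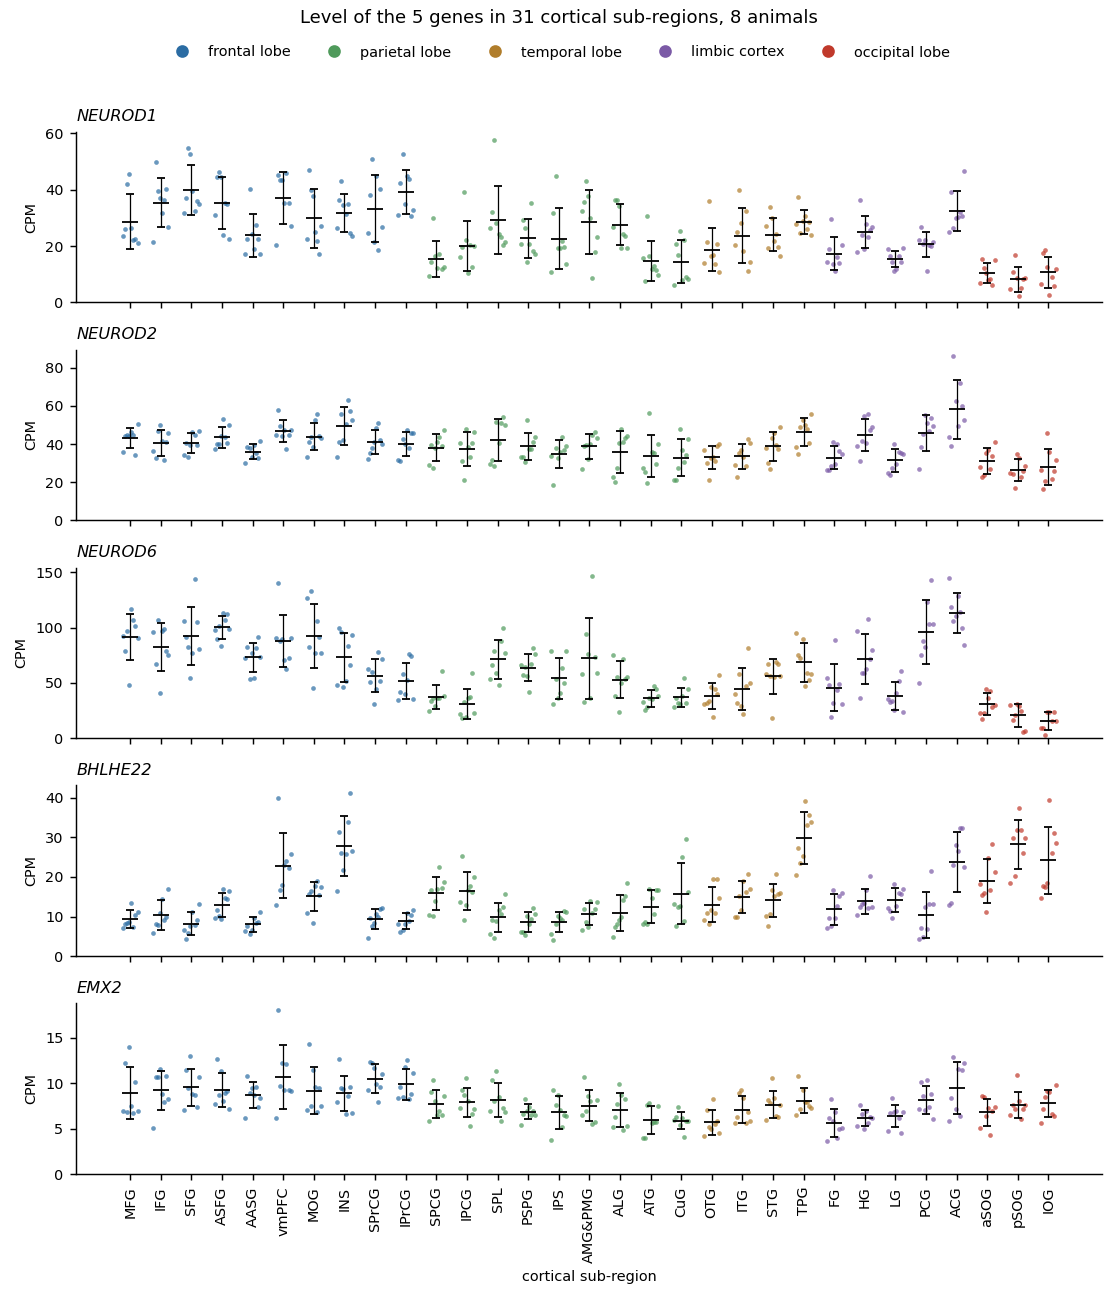
Level (CPM, vertical axis, starting at 0) of the 5 members in 31 neocortical sub-regions (horizontal axis, coloured by lobe). Points are animals and bars are means with 1 SD (n = 8). NEUROD1 and NEUROD6 were low in the 3 occipital sub-regions (aSOG, pSOG, IOG), where BHLHE22 was high.

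How the members vary together was described by the correlation of mean log2(CPM + 1) over sub-regions, which share animals, libraries and dissections and are not independent. Over the 31 neocortical sub-regions Pearson's r was 0.87 between NEUROD2 and NEUROD6, 0.85 between NEUROD1 and NEUROD6, and 0.81 between NEUROD1 and NEUROD2. BHLHE22 ran against NEUROD1 and NEUROD6 with r = -0.33 for both. Within single animals r ranged from 0.37 to 0.65 for NEUROD1 and NEUROD6. The range was 0.25 to 0.77 for NEUROD2 and NEUROD6 and 0.11 to 0.60 for NEUROD1 and NEUROD2. For BHLHE22 it was -0.41 to -0.08 with NEUROD1 and -0.43 to -0.06 with NEUROD6. Each of these pairs kept its sign in 8 of 8 animals. Over the 20 sub-regions outside the neocortex NEUROD1 and BHLHE22 had r = 0.90, so their relation had opposite signs inside and outside the neocortex.

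The genes most like each member over the 51 sub-regions were taken from 13636 genes with a symbol and a mean of at least 1 CPM somewhere. NEUROD2 was followed most closely by SLC17A7 (r = 0.96), GPR22 (0.93) and MFSD4A (0.93), and NEUROD6 by SLC30A3 (0.94), a zinc transporter of synaptic vesicles, RTN4RL2 (0.93) and INO80E (0.92). EMX2 was followed by ICAM5 (0.94), LHX2 (0.94), another homeobox factor of the pallium, and CAMK2A (0.93). BHLHE22 had the least close partners, P4HA3 (0.85), LAMA3 (0.84) and KIAA1614 (0.82).

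NEUROD1 was followed by MAP4K3 (r = 0.95), KIAA1614 (0.91) and ITGA4 (0.90), an integrin subunit with its highest mean, 18.1 CPM, in the cerebellar cortex. In the RefSeq gene order of the assembly T2T-MMU8v2.0, ITGA4 and CERKL are the nearest protein-coding genes on the same side of NEUROD1. CERKL, singled out after its values were seen, had r = 0.89 with NEUROD1 and its highest mean, 40.8 CPM, also in the cerebellar cortex, while ITPRID2 on the other side had r = -0.41. Whether reads of overlapping genes were kept apart in counting is not given in the sources used here. The ranking depended on the measure, since Spearman's correlation kept 2 of the 3 partners of NEUROD1 and 0 of the 3 partners of each other member. Over the 31 neocortical sub-regions alone, r of the named partners ranged from -0.26 (KIAA1614 with NEUROD1) to 0.95 (SLC17A7 with NEUROD2). It was 0.09 for P4HA3 with BHLHE22, 0.42 for ICAM5 with EMX2 and 0.95 for ITGA4 with NEUROD1.

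Lists of related factors place the members among their families. Of 17 bHLH relatives 15 had a row and 10 passed the filter. In the hippocampus 2 of these 10 were higher than in the neocortex and 2 lower, with a median log2 fold change of 0.12 beside 0.02 over all genes. NEUROG2, which acts upstream of the NEUROD genes, measured 4.05 CPM in the hippocampus against 0.00952 in the neocortex (8.33 ± 0.38, edgeR adjusted p = 1.25e-35), and BHLHE40 was lower (-2.26 ± 0.15). In the cerebellum 4 were higher and 2 lower (median 0.62 beside 0.03), led by NHLH1 (6.41 ± 0.32), and in the pituitary 1 was higher and 6 lower (median -1.78 beside 0.03). The 1 was NEUROD4, the NEUROD paralogue outside the set, at 163 ± 26.8 CPM in the pituitary against at most 2.16 CPM on average in any other sub-region.

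Of the E proteins and bHLH inhibitors (12 genes, 9 with a row), 1 was higher and 1 lower in the hippocampus (ID3, 1.06 ± 0.20, and ID2, -1.44 ± 0.16, both inhibitors that bind E proteins), and 0 were higher and 1 lower in the cerebellum. TCF4, an E protein partner of the NEUROD factors that was singled out after its values were seen, was not called in the hippocampus (0.17 ± 0.11) or cerebellum (0.29 ± 0.11) and was lower in the striatum (-1.67 ± 0.11, edgeR adjusted p = 9.32e-27).

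Of 17 pallial factors with a row (19 listed), 12 were lower in the cerebellum and 2 higher, with a median of -3.83. LHX2, an early telencephalic factor, fell there by 10.37 ± 0.67 on the log2 scale and EMX2 by 6.70, whereas PAX6 was higher (2.25 ± 0.10). In the hippocampus 4 were higher and 4 lower (median -0.01), with PROX1, a dentate granule factor, at 2.52 ± 0.28. Subpallial factors (19 listed, 14 tested) were mostly higher in the striatum, with 10 higher and 2 lower (median 1.89 beside 0.01 over all genes), led by ISL1, at 10.2 CPM in the striatum against 0.00401 in the neocortex. EMX2, a pallial factor, was not called there.

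Age and sex were compared within each region group between 4 and 4 animals, each with the other factor as a covariate, and 62 tests of member and group could be made for each. No member was called by edgeR for age at an adjusted p below 0.1 and a fold change over 2, beside 0.0153% of all pairs of gene and group, and 7 tests passed at an unadjusted p below 0.05, which were 11.3% of the 62 beside 5.73% of all pairs. BHLHE22 gave 5 of these 7. Tests of 1 gene in several region groups share the same animals, for age and for sex, and are not independent. In PA BHLHE22 measured 23.6 ± 5.62 CPM in mid-aged animals (18.1 to 29.5) and 49.3 ± 10.6 CPM in young animals (35.4 to 57.9), without overlap, a log2 difference of -1.04 ± 0.20 (edgeR adjusted p = 0.209). DESeq2 called it (adjusted p = 0.000336), and so did edgeR without the filter on low counts (-1.02, adjusted p = 6.78e-08). Both settings called more pairs for age over all genes, 804 of 247595 and 1404 of 369637, against 38 in the main setting. These 2 calls are therefore not read as support for an age difference.

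In the hippocampus BHLHE22 measured 43.5 to 79.1 CPM in mid-aged and 82.3 to 97.6 CPM in young animals, also without overlap (-0.43 ± 0.18, edgeR adjusted p = 0.754). These were the 2 of 62 tests, 3.23%, in which the age groups did not overlap. The share of such pairs over all genes was not determined, so this count is not read as a result about the members. In the pituitary BHLHE22 went the other way (1.64 ± 0.53, adjusted p = 0.486 in edgeR), resting on animals 6 and 11. For sex no member was called by edgeR, beside 0.103% of all pairs, and 3 tests, all of BHLHE22, passed at an unadjusted p below 0.05, which were 4.84% of 62 beside 3.56% of all pairs. The lowest adjusted p was 0.221, for BHLHE22 in the pituitary, higher in females by 1.47 ± 0.53. Animals 6 and 11, both mid-aged females, again held the highest values. Females 4 and 10, at 6.16 and 3.38 CPM, lay within the male range of 1.76 to 9.13 CPM.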

How the data were processed

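Bulk RNA-seq gene read counts of 408 samples were used, 8 animals in each of 51 sub-regions. Per the labels and the study's methods, the authors quality-trimmed the samples whose reads were poor (Trim Galore), aligned with HISAT2 2.0.5 on the rhesus assembly Mmul 8.0.1, and obtained gene counts from HTSeq 0.6.1 with the Ensembl 91 annotation. The deposited values are raw counts with no normalization, and the strand and overlap options of counting are not given in the sources used here. No gene lengths were used, so levels were not compared between genes. Every column was mapped to 1 sample by its label, and no pair of samples held identical values.

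Counts were scaled with TMM and tested with edgeR 4.0.16 (quasi-likelihood test, filterByExpr, Benjamini-Hochberg adjustment over all genes tested) in R 4.3.3. Region comparisons had the animal as a block, which the design gives since all regions come from the same 8 animals. Deviations from the region means correlated with a median of 0.444 between samples of the same animal and -0.060 between animals. Calls needed an adjusted p below 0.05 (0.1 for age and sex) and a fold change over 2. Intervals of fold changes are at 95%. Age and sex were fitted within each region group. Samples of 1 group come from separate animals. Levels are CPM with TMM-scaled library sizes, and log2 levels have a pseudocount of 1. The floor of 3 counts corresponds to a median of 0.280 CPM.

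The members and lists were chosen with earlier results of these data known. Named genes were the members in every comparison, the 3 genes most like each member, and, as examples, genes from the lists with the largest called fold change (at most 2 per list and direction, at least 1 CPM in the higher group), beside markers and E proteins named for their role. Alternatives were DESeq2 1.42.0, its size factors in edgeR, no filter, no block or covariate, another pseudocount or CPM without logarithm, and leaving out each animal. The procedures were tested on simulated data. Values of some listed genes are not reported here.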

Additional observations from a re-analysis of the deposited data

Results flagged for a closer look

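Dixon's test at the 95% level was run on CPM in 120 groups of 8 samples. In 25 of them, which is 20.8%, the highest or lowest sample lay far from the others. A chance rate of about 1 in 20 groups holds only for independent, normally distributed values. Many levels here were low and skewed, and groups shared libraries, with sub-regions counted again within summed regions. The share flagged is therefore not read as an excess over chance. Animal 6 gave 6 of the 25. In its hypothalamus NEUROD1 measured 15.7 CPM (next highest animal 2.36), NEUROD2 31.3 (next 1.15), NEUROD6 20.4 (next 3.86), BHLHE22 11.4 (next 3.64) and EMX2 6.02 (next 2.89). In its substantia nigra NEUROD6 measured 4.21 CPM (next 1.96).

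The accumbens of animal 10 was far above the other animals for NEUROD2 at 12.9 CPM (next 2.85), NEUROD6 at 27.7 (next 7.84) and BHLHE22 at 6.68 (next 2.53), and in its summed striatum NEUROD2 was 4.44 CPM (next 1.75) and BHLHE22 2.27 (next 0.925). The putamen of animal 3 stood out for NEUROD1 at 1.64 CPM (next 0.262), NEUROD2 at 4.80 (next 0.613) and NEUROD6 at 16.6 (next 1.10). The same animal was highest for NEUROD1 in the globus pallidus at 3.77 CPM (next 0.394) and for BHLHE22 in the pons at 2.03 (next 0.936).

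Animal 4 was highest for NEUROD2 in the substantia nigra at 5.55 CPM (next 2.02), for NEUROD6 in the cerebellum at 7.52 (next 3.57) and for NEUROD6 in the vermis at 11.2 (next 4.43). Animal 7 was highest for NEUROD1 in the ventral tegmental area at 3.24 CPM (next 1.25) and for NEUROD2 in the globus pallidus at 0.471 (next 0.197). Animal 8 was highest for NEUROD6 in the thalamus at 1.51 CPM (next 0.500). Animal 2 was highest for BHLHE22 in the globus pallidus at 1.48 CPM (next 0.554), held the only NEUROD2 read of the pituitary at 0.0941 CPM (the others at 0), and was lowest for NEUROD2 in CA1 at 54.9 CPM (next lowest 74.5). Of the 25 values, this last was the 1 in which a sample was low.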

How the results depend on the processing

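Of 1524 alternative values of 127 member fold changes (69 of them called), 15 changed sign, none of them called. Without the filter NEUROD2 became 0.00051 in the parietal lobe, and NEUROD6 -0.0018 in the amygdala and 0.012 in the parietal lobe. Without the replicate block NEUROD6 became 0.0053 in the parietal lobe. With each animal left out NEUROD2 ranged from -0.028 to 0.017 in the parietal and from -0.0069 to 0.037 in the temporal lobe, and NEUROD6 from -0.038 to 0.24 in the amygdala, -0.041 to 0.051 in the parietal and -0.021 to 0.11 in the temporal lobe.

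Without the animal as a replicate block, 2 of 5 members differed in the dentate gyrus in place of 5, and 8 of 25 pairs of member and lobe passed in place of 14; no other count of calls of the members moved by over 1.5 times. Without the filter 4 members were called in the accumbens in place of 0, beside 1105 of 24371 genes. In that setting 4 tests of age and 2 of sex were called, beside 1404 and 1432 of 369637 pairs of gene and group. DESeq2 called 2 tests of age and 1 of sex, beside 804 and 1021 of 247595 pairs. With each animal left out, 2 to 5 members differed in the dentate gyrus and 0 to 1 was called, 0 to 1 was called in the accumbens and 0 to 1 for sex, 11 to 14 pairs of member and lobe passed, and 52 to 53 pairs stayed lower than the neocortex and 9 higher. The causes were not tested.

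Counts over all genes moved more. Without the filter they became 3155 from 2080 (hippocampus), 651 from 306 (frontal), 139 from 83 (limbic), 57 from 37 (parietal, 19 higher and 38 lower in place of 6 and 31) and 253 from 133 (temporal). Vermis against cerebellar cortex gave 10 from 32 without the block (6 higher and 4 lower in place of 15 and 17), parietal 12 from 37, and CA1 against CA3 19 with DESeq2, 13 without the filter and 1 without the block, from 3. With an animal left out the vermis count was 17 (without animal 7) to 42 (without animal 4), with 18 or 19 without animals 2, 3, 8 or 10, and the CA1 against CA3 count was 0 (without animal 7) to 24 (without animal 11), with 1 without animals 3, 4 or 10, 5 without animal 2 and 6 without animal 6. Age calls went from 38 to 804 with DESeq2, 1404 without the filter, 13 without the covariate and 3 to 937 with an animal left out (937 without animal 7), and sex calls from 256 to 1021, 1432 and 227 to 2342 (2342 without animal 7). Depth limits levels under about 0.280 CPM, and 8 animals limit the order of neighbouring groups.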
